A study of Xenopus tropicalis with 11 samples.

Results

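Low-input bins are the parts of the chromosomes where nuclease-cut chromatin, sampled before precipitation, gave few reads. Of the 144914 bins of 10 kb on the 10 chromosomes of *X. tropicalis* (145051 bins with the unplaced scaffolds), 1682 (1.16%, 16.8 Mb) had an input count above 0 and at most 0.5 times the median bin in each of the 3 input libraries. Because the inputs chose these bins, their low input is not a result. Their positions, their genes and their counts in the immunoprecipitated libraries were not used in the choice.

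The data are 11 native ChIP-seq libraries from *X. tropicalis* XTN-6 cells, a wild-type line derived from embryos of the NXR Nigerian strain, and no group received a treatment. Chromatin was cut to single nucleosomes with micrococcal nuclease and precipitated with antibodies to Cenp-a (replicates 1 to 3), histone H3 (replicates 2 and 3) or histone H4 (replicate 1), or with rabbit IgG that has no target in chromatin (replicates 2 and 3). Input is the same chromatin before precipitation (replicates 1 to 3). The labels give the source as XTN-6 cells but also carry the terms whole tadpole and stage NF 20, and the study describes its 3 rounds of ChIP-seq as technical replicates. The SDs and p-values below therefore measure technical spread between libraries, not spread between cultures or animals.

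Cenp-a is the histone H3 variant that marks the centromere, where it replaces part of the H3 and recruits the kinetochore. H3 and H4 are core histones of nearly every nucleosome, and their precipitates sample nucleosomes along the whole genome. Input reads report how often a stretch of DNA is recovered as soluble nucleosomes, sequenced and placed by the aligner, and precipitates start from that same pool.

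Throughout, the level of a bin is its count divided by the count of the library's median bin on the chromosomes. Library totals on the chromosomes lay between 4050888 counts (IgG replicate 2) and 229744473 (Cenp-a replicate 3), and their median bins between 24 and 1371 counts. In a low-input bin the median count was 87, 23 and 392 in Cenp-a replicates 1, 2 and 3. It was 125 and 77 in H3 replicates 2 and 3, 82 in H4, 6 and 208 in IgG replicates 2 and 3, and 109, 82 and 152 in input replicates 1, 2 and 3. IgG replicate 2 therefore carries little weight: 178 of the 1682 bins (10.6%) had no count in it, which allows a level of up to 0.125 (3 counts), and 1174 (69.8%) had fewer than 10. For a bin at the median, the exact 95% Poisson interval of the level was 0.258 to 0.316 in Cenp-a replicate 3, but 0.0917 to 0.544 in IgG replicate 2. Such intervals and limits cover counting error only.

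The depth of the loss ranged widely. By mean input level, 124 low-input bins lay at or under 0.05, 130 between 0.05 and 0.1, 209 between 0.1 and 0.2, 269 between 0.2 and 0.3, 447 between 0.3 and 0.4 and 503 above 0.4. The limit does not fall in a gap. Some 483 low-input bins had an input level above 0.45 in at least 1 input, and 608 other bins stayed at or under 0.55 in all of them. Just inside the limit, a bin of esrrgr on chromosome 8 (77996384-78006383) had input levels of 0.5, 0.498 and 0.428, and bins of chromosomes 2 (18131474-18141473) and 5 (155622767-155632766) had a largest input level of 0.5. Just outside it, 3 bins of chromosomes 2 (90017366-90027365 and 162043258-162053257) and 7 (23961965-23971964) had a largest input level of 0.501.

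The opposite extreme was nearly empty. A bin of chromosome 1 (28541965-28551964) had 1 count in each input, 0, 0 and 2 in Cenp-a, and none in H3 or H4. In galnt18, which in mammals encodes an enzyme of O-glycosylation, a bin of chromosome 4 (5970492-5980491) had 1, 0 and 8 counts in Cenp-a replicates 1, 2 and 3, none in H3 or H4, and 2, 1 and 2 in the inputs. The other 3 of the 5 emptiest low-input bins lay at chromosome 5 86066875-86076874, chromosome 5 900001-910000 and chromosome 1 150001-160000, with at most 3 counts in any input. A further 157 bins had no count in any input and so do not belong to the set, and 142 of them had none in any of the 11 libraries. No library had more than 4 counts in any of the 157.

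Low-input bins were concentrated towards the chromosome ends, although most lay elsewhere. The outermost 1 Mb held 135 of them, 8.03% of the set against 1.38% of all bins, and 345 lay between 1 and 5 Mb from an end (20.5% against 5.52%). Put as a share of the zone, 6.75% of the bins in the outermost 1 Mb, 4.31% of those from 1 to 5 Mb, 1.83% from 5 to 20 Mb, 0.650% from 20 to 30 Mb and 0.616% further in were low-input bins. Of the 528 low-input bins further in than 30 Mb, 387 lay in 3 long stretches of chromosome 8, described below. Between 0.5 and 5 Mb from a centromere lay 58 of them (3.45% of the set against 6.20% of bins). Within 0.5 Mb lay 11 (0.654%, with a 95% Wilson interval of 0.366 to 1.17%, against 0.765% of bins), which sets no direction, and at a limit of 0.4 times the median the share there was 0.957%, on the other side of that of all bins. The centromere is here the group of bins with the largest Cenp-a excess over input on each chromosome, so its position rests on the Cenp-a libraries. Neighbouring bins are not independent, and these shares were not tested.

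**Figure D1:**
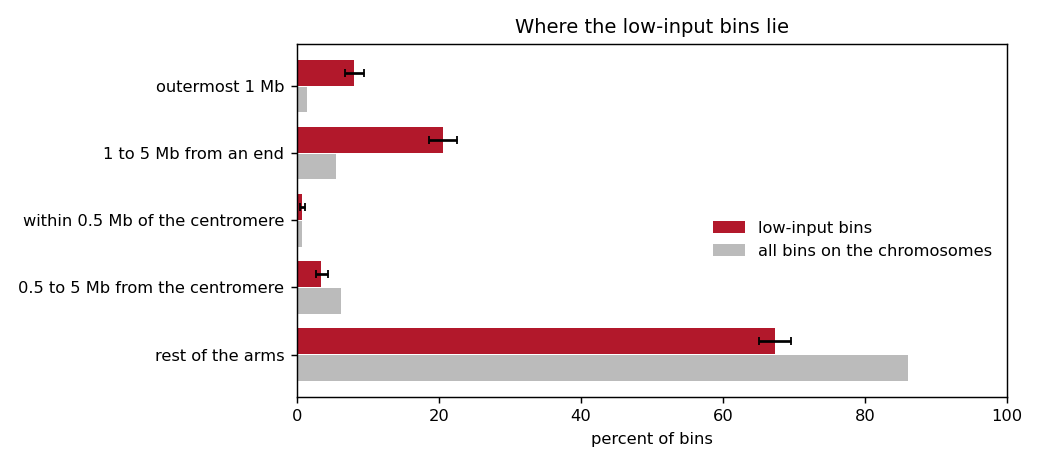
Share of the low-input bins (red, n = 1682) and of all bins on the 10 chromosomes (grey, n = 144914) in 5 classes of position, in percent of bins. Error bars are 95% Wilson intervals, which cover counting error only and treat neighbouring bins as independent. The outermost 1 Mb holds 8.03% of the low-input bins and 1.38% of all bins.

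Chromosome 8 carried 544 of the 1682 bins, or 3.70% of its own bins, more than any other chromosome on either count. By share of the chromosome's bins, chromosome 9 followed with 1.80% (164 bins), chromosome 5 with 1.28% (210) and chromosome 7 with 1.19% (159). The other shares lay between 0.909% on chromosome 4 and 0.351% on chromosome 3 (54 bins); chromosome 10, the shortest, had the fewest bins (29) but a share of 0.553%. Chromosomes differed in their own input level: the median bin of chromosomes 3, 8 and 10 stood at 1.34, 1.32 and 1.24, that of the other chromosomes between 0.91 and 0.97. The precipitates shared this. Over all 11 libraries the median bin lay between 1.33 and 1.37 on chromosome 3, 1.29 and 1.34 on chromosome 8, and 1.13 and 1.30 on chromosome 10. A limit set by each chromosome's own median, an alternative chosen after seeing the data, gave 2326 bins, of which 1560 were shared with the set and 1274 lay on chromosome 8.

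Low-input bins came both as lone bins and in groups. They formed 1090 runs of adjacent bins, of which 764 were single bins (45.4% of the set) and 326 were runs of at least 2 bins that held the remaining 918. Only 37 runs reached 5 bins, and 47 low-input bins (2.79%) adjoined a bin with no count in any input, against 0.0713% of the other bins. The longest run was 110 kb on chromosome 7 (108218839-108328838), over LOC101731551 and LOC101733369. Its level was 0.149, 0.166 and 0.164 in Cenp-a replicates 1, 2 and 3, 0.184 and 0.163 in H3 replicates 2 and 3, 0.157 in H4, 0.208 and 0.182 in IgG replicates 2 and 3, and 0.161, 0.203 and 0.187 in the inputs. All 11 libraries thus dropped to a similar depth there.

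The other 4 of the 5 longest runs measured between 70 and 100 kb. The run of 100 kb on chromosome 1 (214487677-214587676) spans 3 protein-coding genes and a pseudogene known only by LOC numbers, and that of 90 kb on chromosome 9 (9290492-9380491) reaches LOC101733399 and LOC116407657. The run of 90 kb on chromosome 6 (1510001-1600000) lies inside kcnh6, a voltage-gated potassium channel gene. In it the level was 0.104, 0.115 and 0.117 in Cenp-a, 0.134 and 0.124 in H3, 0.104 in H4, 0.120 and 0.127 in IgG, and 0.133, 0.147 and 0.159 in the inputs. The run of 70 kb on chromosome 8 (17541474-17611473) overlaps no annotated gene. Replicate 1 stood apart in it: Cenp-a replicate 1 was at 0.0595 and H4 at 0.0479, while Cenp-a replicates 2 and 3 were at 0.108 and 0.132, and input replicate 1 was at 0.0915 while inputs 2 and 3 were at 0.150 and 0.152.

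Beyond runs, 25 broader stretches stood out in which the running median of the mean input level over 21 bins stayed at or under 0.7 for at least 210 kb, a definition chosen after seeing the data. They covered 2126 bins (1.47% of all) and held 657 of the low-input bins (39.1%), leaving 1025 outside. Because input defines them, their low input is again a description, and their edges are known to about 100 kb. Only 4 measured at least 1 Mb, and 3 of those lay on the long arm of chromosome 8, at 76496384-83966874 (7.47 Mb), 84346875-86726874 (2.38 Mb) and 87997366-90597365 (2.6 Mb). They covered 12.45 Mb and held 387 of the 544 low-input bins of chromosome 8 (71.1%), although only 31.1% of their bins met the limit. The fourth lay on chromosome 5 at 156633258-158823257 (2.19 Mb) and held 77.

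**Figure D2:**
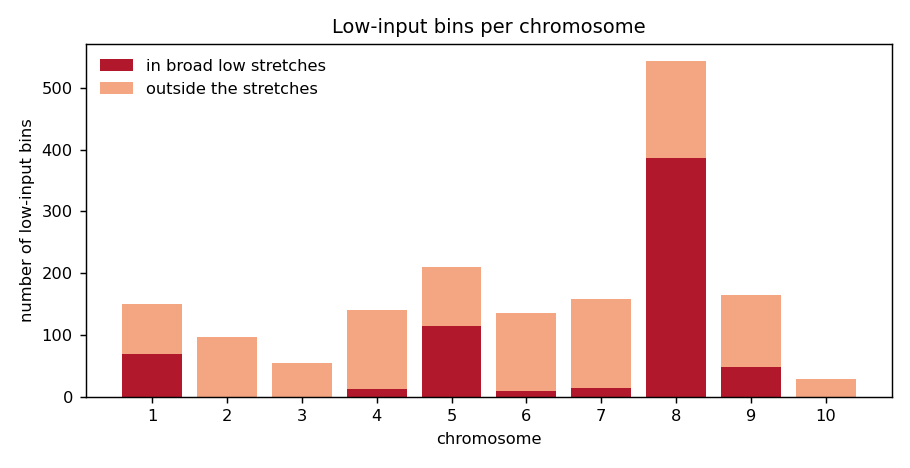
Number of low-input bins on each chromosome, split into those in the 25 broad low stretches (dark red) and those outside them (light). Chromosome 8 has 544 and chromosome 10 has 29.

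The 3 long stretches of chromosome 8 were low in every library, with a step at their edges. A count does not separate the number of DNA copies in these cells from how often the DNA was recovered and placed, and the copy number of the XTN-6 line was not tested. In the stretch of 7.47 Mb the level was 0.539, 0.524 and 0.549 in Cenp-a replicates 1, 2 and 3, 0.522 and 0.545 in H3 replicates 2 and 3, 0.554 in H4, 0.5 and 0.516 in IgG replicates 2 and 3, and 0.497, 0.518 and 0.518 in the inputs. The flanks, taken as 200 kb on each side starting 100 kb from the edge, had input levels of 1.14 and 1.20. Relative to its flanks, the stretch stood between 0.423 and 0.515 in the 11 libraries, the stretch of 2.38 Mb between 0.336 and 0.370, and the stretch of 2.6 Mb between 0.323 and 0.365. At the 6 edges, the median of 10 bins lying 20 to 110 kb inside was 0.263 to 0.5 of that of the 10 bins outside, over all edges and libraries. Cenp-a, H3, H4 and IgG therefore fell with the input, by a similar factor. The stretch of chromosome 5 was shallower against its flanks (0.641 to 0.772), and the bins on its right side were themselves low, with an input level of 0.574.

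**Figure D3:**
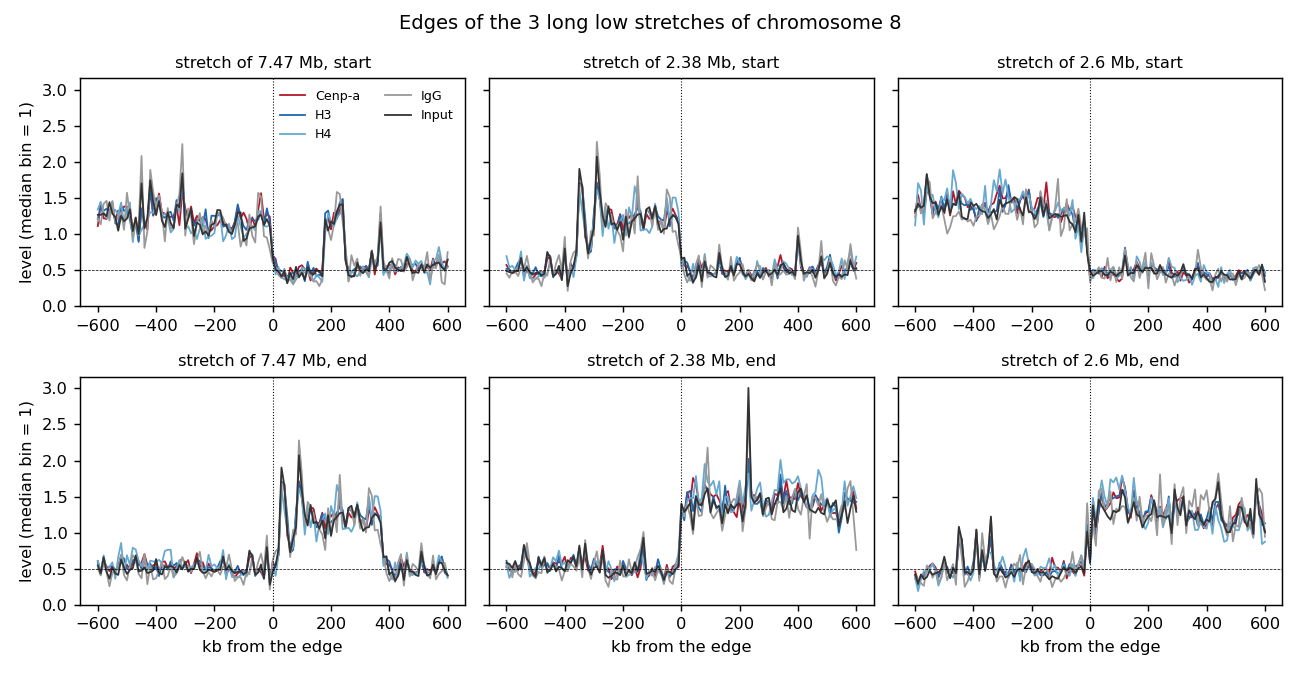
Level of each bin (median bin of the library = 1) against the distance from the edge in kb, at the start and end of the 3 long low stretches of chromosome 8; lines are means over the libraries of Cenp-a (n = 3), H3 (n = 2), H4 (n = 1), IgG (n = 2) and input (n = 3). All groups step together between levels mostly above 1 outside and about 0.5 (dashed line) inside, with a short island of higher level near the start of the first.

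Many genes lie in these 3 stretches. The stretch of 7.47 Mb spans 199 protein-coding genes, of which 97 overlap a low-input bin. The stretches of 2.38 and 2.6 Mb span 22 and 30, of which 17 and 24 do. The genes named in the rest of this paragraph were picked after their values were seen, for being well known. In the longest stretch the 10 genes cyp2a6.1 to cyp2a6.10 stand together, a cytochrome P450 family. Whether reads are shared among these genes was not tested. The same stretch also holds ryr1, the calcium release channel of skeletal muscle, actn4, an actin crosslinker, and dio2, which activates thyroid hormone. The stretch of 2.38 Mb holds galc, which in mammals encodes a lysosomal enzyme, and the transcription factor gene foxn3. The stretch of 2.6 Mb holds dicer1, whose product cuts microRNA precursors, gsc, a transcription factor gene of the Spemann organizer, and a group of serpina genes related to mammalian alpha-1 antitrypsin.

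Across the whole set, low-input bins were poor in genes. An annotated gene overlapped 797 of them (47.4%), against 62.9% of all bins. They touched 656 of 28772 genes on the chromosomes, among them 517 of 21748 protein-coding genes (2.38%), 66 of 2350 long noncoding RNAs (2.81%), 18 of 614 small nuclear RNAs (2.93%), 6 of 463 rRNA genes (1.30%), 5 of 2366 tRNA genes (0.211%) and 34 of 548 pseudogenes (6.20%). None of 187 microRNA genes was touched. A longer gene spans more bins and can be touched more often, and gene length was not corrected for. These shares therefore cannot be compared between long and short gene types. For a gene inside 1 bin, the reference is the 1.16% of all bins in the set. By gene symbol, low-input bins overlapped 1 of 28 histone genes (h2ac14), 3 of 202 zinc finger genes (znf577, znf665l and znf71), 1 of 42 NLR and TRIM genes (trim66) and 1 of 141 homeobox genes (meis3). The annotated span of h2ac14 is 1194 kb, of which 50 kb lay in low-input bins. Whether its coding sequence lies in them was not examined. The symbol lists of homeobox and zinc finger genes leave out gsc and bcl11b, which also overlap low-input bins, so these counts are incomplete. No gene of the 43 olfactory, vomeronasal and taste receptors, 21 protocadherins, 84 ribosomal proteins or 5 GIMAP and MHC genes was overlapped. Against the 2.38% of all protein-coding genes, families of this size are too small for a lack of overlap to set a direction. Genes known only by a LOC number are not counted in these families.

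Among the 25 protein-coding genes with the most sequence in low-input bins, 10 have only a LOC number. The first was ctnna2, a neuronal alpha-catenin that ties cadherins to actin, with 110 kb of its 1024 kb in low-input bins. Over those bins the mean level lay between 0.267 and 0.276 in the Cenp-a libraries, 0.257 and 0.289 in H3 and 0.262 and 0.283 in the inputs. In kcnh6, 90 kb of 228 kb were low, and in a2ml1, a protease inhibitor gene of the alpha-2-macroglobulin family, 70 kb of 214 kb, with Cenp-a levels of 0.0819 to 0.108 and input levels of 0.126 to 0.144. The unnamed genes LOC101730989, LOC101734594 and LOC108645372 overlap each other on chromosome 8 and share low-input bins, as do a2ml1 and LOC116412040, which lies wholly in such bins.

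Some of these genes differed in whether Cenp-a fell below or above the input. In rrp8, whose product methylates rRNA, Cenp-a levels were 0.112 to 0.134 and input levels 0.142 to 0.151, and in stab1, a scavenger receptor gene, they were 0.101 to 0.155 and 0.210 to 0.240. In others the ranges overlapped. In galnt18, outside the stretches, Cenp-a levels were 0.144 to 0.210 and input levels 0.159 to 0.203. In tdp1, in a stretch of chromosome 8, they were 0.427 to 0.518 and 0.432 to 0.456. In other listed genes of the chromosome 8 stretches the order was turned round. In nrxn3, a presynaptic adhesion gene, Cenp-a levels were 0.459 to 0.489, the H4 level 0.516 and input levels 0.420 to 0.439. The transcription factor gene bcl11b had Cenp-a levels of 0.504 to 0.528, an H4 level of 0.515 and input levels of 0.370 to 0.407, and syne3, a nuclear envelope protein gene, had 0.528 to 0.572, 0.557 and 0.398 to 0.455. These bins were chosen for low input, which favours the inputs being the lower of each pair.

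Taken over the whole set, the precipitates were low too. Every Cenp-a library (0.274 to 0.286) and H4 had a median level below every input (0.313 to 0.327). So did H3 replicate 3 and the shallow IgG replicate 2, but not H3 replicate 2 (0.328) or IgG replicate 3 (0.326). The median level was 0.280 ± 0.0057 in Cenp-a (SD, n = 3), 0.304 ± 0.034 in H3 (n = 2), 0.259 in H4 (n = 1), 0.288 ± 0.053 in IgG (n = 2) and 0.321 ± 0.0072 in input (n = 3). A level of at most 0.5 was reached by 90.0%, 89.7% and 91.3% of the bins in Cenp-a replicates 1, 2 and 3, 92.9% and 91.3% in H3 replicates 2 and 3, 91.1% in H4, and 86.0% and 95.7% in IgG replicates 2 and 3. Among all bins, between 1.80% (H3 replicate 2) and 8.49% (IgG replicate 2) reached it. Most bins short of input were thus short of Cenp-a, H3, H4 and IgG reads too.

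The libraries separated more clearly outside the broad stretches. In the 1025 low-input bins there, the median level was 0.208, 0.220 and 0.222 in Cenp-a replicates 1, 2 and 3, 0.262 and 0.215 in H3 replicates 2 and 3, 0.199 in H4, 0.208 and 0.261 in IgG replicates 2 and 3, and 0.253, 0.269 and 0.267 in the inputs. Cenp-a, H4 and H3 replicate 3 lay below every input, without overlap, and so did the shallow IgG replicate 2. H3 replicate 2 did not: it stood with the inputs and IgG replicate 3, so the 2 H3 libraries differed from each other by more than the 3 Cenp-a libraries did. In the 657 bins inside stretches the median level was 0.399 ± 0.021 in Cenp-a, 0.4 ± 0.0055 in H3, 0.367 in H4, 0.368 ± 0.049 in IgG and 0.39 ± 0.014 in input, and the groups overlapped. Stretches differed, however. The 387 bins in those of chromosome 8 had 0.455 in Cenp-a, 0.453 in H4 and 0.421 in input. Over all bins of the long stretch of chromosome 5, every precipitate (0.335 to 0.5) lay below every input (0.509 to 0.518).

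**Figure D4:**
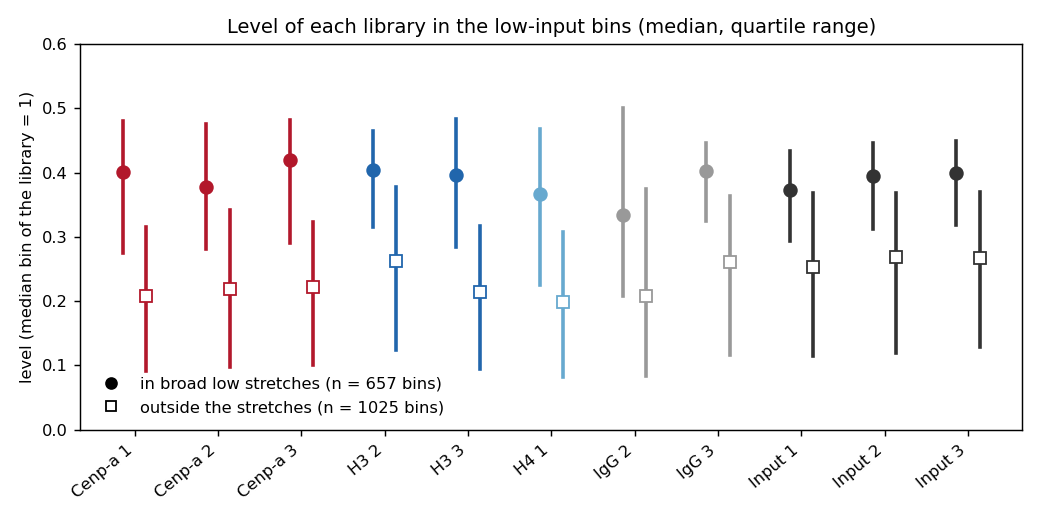
Median level (symbols) and range between the quartiles (bars) over the low-input bins of each library, with the library's median bin at 1. Filled circles are the 657 bins in broad low stretches and open squares the 1025 bins outside them; outside, Cenp-a, H4 and H3 replicate 3 lie between 0.199 and 0.222 and the inputs between 0.253 and 0.269.

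Set against the input of its own replicate, the median ratio of Cenp-a was 0.933 ± 0.011 (SD, n = 3), of H3 0.965 ± 0.053 (n = 2), of H4 0.909 and of IgG 0.951 ± 0.043 (n = 2), while over all bins these ratios were between 0.988 and 1.01. The same input chose the bins and forms the ratio, which lifts it. With the bins chosen by the inputs of the other 2 replicates, the ratios were 0.917 ± 0.0038 for Cenp-a, 0.950 ± 0.035 for H3, 0.886 for H4 and 0.941 ± 0.042 for IgG. Chosen in that way, the left-out input itself stood at 0.336 to 0.355 of its median bin, against 0.313 to 0.327 in the set chosen by all 3. Outside the stretches the held-out ratios were 0.853 ± 0.025 for Cenp-a, 0.916 ± 0.079 for H3, 0.823 for H4 and 0.933 ± 0.046 for IgG, and inside them 1.00 ± 0.031, 0.995 ± 0.020, 0.989 and 0.944 ± 0.046. The stretches were drawn from the mean of all 3 inputs, so this split is not independent of the left-out input. The ratios inside pool the stretches of chromosome 8 with those of other chromosomes and were not split further. These ratios are descriptions, with no test.

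The 3 comparisons that leave the input out can be tested. Each was fitted over the whole table with the quasi-likelihood test of edgeR, with p-values adjusted over all bins by the Benjamini-Hochberg method. The first asks where Cenp-a departs from bulk nucleosomes (H4 in replicate 1, H3 in replicates 2 and 3, so antibody and replicate cannot be told apart). Of the 1682 low-input bins, 1593 passed the filter on low counts, and 4 of them (0.251%) were called higher in Cenp-a, against 0.126% of all bins tested. None was called lower, against 0.0076% of all bins, a share so small that the lack of lower calls carries little information. In this comparison the median standard error of the low-input bins was 0.22, against 0.12 over all bins. Smaller differences were therefore less detectable in them. At an unadjusted p under 0.05, 42 were higher (2.64%, against 2.05% of all bins) and 28 lower (1.76%, against 3.33%), and DESeq2 called 4 higher (0.251%, against 0.0975% of all bins) and 0 lower (against 0% of all bins). The median log2 difference was -0.02 in the low-input bins, with quartiles of -0.18 and 0.13, and -0.02 over all bins. By replicate it was 0.03, -0.05 and -0.02.

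All 4 called bins lay inside the Cenp-a peak of a centromere. On chromosome 7 (60304911-60314910) the bin had 444, 107 and 2363 counts in Cenp-a replicates 1, 2 and 3, against 94 and 62 in H3 replicates 2 and 3, 67 in H4, 0 and 159 in IgG replicates 2 and 3, and 43, 88 and 116 in the inputs. Its Cenp-a levels were 1.40, 1.30 and 1.72, all above the median bin, while H3 and H4 lay between 0.212 and 0.247. The log2 difference between Cenp-a and H3/H4 was 2.69 ± 0.15 (SE, adjusted p = 4.19e-26, edgeR). The bin of chromosome 2 (67525402-67535401) had 296, 85 and 1893 counts in Cenp-a, against 72 and 57 in H3, 50 in H4, 6 and 67 in IgG and 25, 62 and 85 in the inputs, a log2 difference of 2.58 ± 0.17 (adjusted p = 8.44e-21, edgeR).

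The other 2 lay 40 kb apart in the centromere of chromosome 8. At 21371474-21381473 Cenp-a had 171, 61 and 1149 counts, against 26 and 19 in H3, 12 in H4, 4 and 41 in IgG and 10, 28 and 26 in the inputs, and the log2 difference was 3.59 ± 0.24 (adjusted p = 1.26e-20, edgeR). At 21411474-21421473 Cenp-a had 171, 47 and 792 counts, against 21 and 11 in H3, 8 in H4, 8 and 42 in IgG and 2, 18 and 28 in the inputs, with 3.81 ± 0.28 (adjusted p = 6.49e-19, edgeR). Every Cenp-a level in these 2 bins was below that of the median bin and lay between 0.539 and 0.838. Since the position of the centromere was taken from Cenp-a, their place in it is not a separate finding. No annotated gene overlaps any of the 4.

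The other 7 low-input bins within 0.5 Mb of a centromere were not called. On chromosome 10, 2 adjoining bins (21231474-21251473) lay inside the Cenp-a interval, yet had Cenp-a levels of 0.0915, 0.146 and 0.0897 in the first and 0.306, 0.0976 and 0.0496 in the second, with log2 differences of 0.26 ± 0.35 and 0.55 ± 0.34 (adjusted p = 0.987 and 0.955, edgeR). In the second, replicate 1 was the high library in H4 too (0.180, against 0.0525 and 0.0509 in H3 replicates 2 and 3). The remaining 5, on chromosomes 4 and 8, had log2 differences between -0.47 and 0.51.

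**Figure D5:**
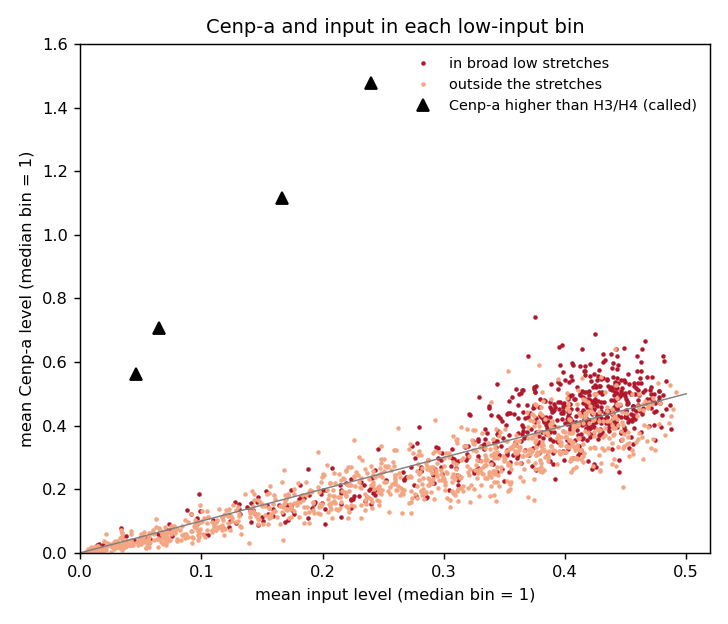
Mean level of Cenp-a (n = 3 libraries) against mean level of input (n = 3) in each of the 1682 low-input bins, with the median bin of a library at 1 and the grey line at equal levels. The 4 bins called higher in Cenp-a than in H3/H4 (triangles) lie far above the line. The other bins rise with input: those in stretches (dark red) lie on both sides of the line, and those outside (light) more often below it.

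Away from the centromeres, the highest mean Cenp-a level of any low-input bin was 0.742, in ehd2 on chromosome 8 (79756384-79766383), a bin chosen after its values were seen. Its Cenp-a levels were 0.795, 0.707 and 0.724, its H3 levels 0.475 and 0.542, its H4 level 0.671 and its input levels 0.325, 0.419 and 0.383.

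Against IgG in replicates 2 and 3, 1631 low-input bins could be tested. The same 4 bins were called higher in Cenp-a (0.245%, against 0.172% of all bins), with log2 differences between 2.61 and 3.48. None was called lower, against 0.352% of all bins. At an unadjusted p under 0.05, 17 were higher (1.04%, against 2.41% of all bins) and 23 lower (1.41%, against 3.99%), and DESeq2 called 3 higher (0.184%, against 0.0981%) and 0 lower (against 0.183%). The standard error of a low-input bin was 0.37 in the median, against 0.22 over all bins, so smaller differences were less detectable there. The median log2 difference was -0.09, against 0.01 over all bins, and it split by place: -0.17 outside the stretches and 0.03 inside them. By replicate the median outside the stretches was -0.16 and -0.18. In the 3 stretches of chromosome 8 the median was 0.14, the opposite sign to that outside. Over all low-input bins without those 3 stretches it was -0.17, the same as outside all stretches. The value of 0.03 inside the stretches therefore pools chromosome 8 with stretches that differ from it. Leaving out a library of replicate 3 moved these values, in fits with no replicate block. Without IgG replicate 3 the median was 0.00, against 0.03 over all bins, with 10 low-input bins called higher (0.739%, against 0.986% of all bins) and 3 lower (0.222%, against 0.807%). Without Cenp-a replicate 3 the median was -0.01, against -0.01 over all bins, with 3 called higher (0.222%, against 0.0658%) and 0 lower (against 0.0235%).

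H3 against IgG, the comparison with no Cenp-a in it, gave no call among 1610 low-input bins tested, against 0.00138% of all bins called higher and 0.00622% called lower by edgeR. With so few calls over all bins, the lack of calls here carries little information. The median standard error was 0.38 in the low-input bins and 0.22 over all bins, so smaller differences were again less detectable. At an unadjusted p under 0.05, 12 were higher (0.745%, against 2.29% of all bins) and 24 lower (1.49%, against 2.55%), and DESeq2 called 0 in either direction, against 0.000691% of all bins called higher and 0.0117% lower. The median log2 difference was -0.05 in the low-input bins and 0.02 over all bins. Outside the stretches it was -0.03 in replicate 2 and -0.15 in replicate 3. In the 3 stretches of chromosome 8 the median over replicates was 0.13, and over all other low-input bins it was -0.12. With no replicate block the median over the set was -0.02. In that fit, leaving out H3 replicate 3 gave 0.03, against 0.01 over all bins, with no low-input bin called (against 0.00207% of all bins higher and 0.00138% lower), and leaving out IgG replicate 3 gave 0.06, against 0.04, with 2 bins called higher (0.129%, against 0.597% of all bins) and 0 lower (against 0.32%). Cenp-a and H3 were set against the same IgG libraries, and their differences are therefore not independent of each other.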

How the data were processed

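The 11 deposited tables hold raw counts of reads per 10-kb bin, which the authors made from Illumina pairs trimmed with Trimmomatic 0.39, aligned with minimap2 2.17-r941 to the unmasked v10 genome, sorted with SAMtools 1.9 and counted with deepTools 3.3.0 at a mapping quality of 0 or more; reads of repeats are therefore included. Removal of duplicate reads is not given in the sources used here. Bins come in blocks of 580, with 491 bp left out between blocks. Coordinates are those of the deposited counts, 1-based. Chromosome numbers and genes come from RefSeq for UCB_Xtro_10.0, matching last bins to last gene ends within 182731 bp; genome sequence was not used here, so GC content, gaps and mappability were not analysed.

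Low-input bins, comparisons and lists were chosen with earlier results of these data known. Library size was the total on the chromosomes. A bin entered a test where 50% or more of its libraries had 10 or more counts. The tool was edgeR 4.0.16 (R 4.3.3, glmQLFit with robust estimation, glmQLFTest), with a replicate block and calls at an adjusted p under 0.05; the standard error is the absolute log2 fold change over the square root of F. The script was tested on simulated data with a common dispersion, with changed bins drawn from all testable bins and not from low-input bins alone. Of 100 bins changed 2-fold, it recovered 100 for Cenp-a against H3/H4, 77 for Cenp-a against IgG and 70 for H3 against IgG. Same-numbered Cenp-a and H3/H4 libraries deviated together from their group means (r = 0.21, 0.19 and 0.16 over 140047 bins), and the numbers come from the labels. The largest share of bins with equal counts in any pair of libraries was 1.01%, so each was counted as its own library. Alternatives were DESeq2 1.42.0, TMM factors, other filters, fold minimums and limits, no block, and leaving out libraries. Positions named are the 5 longest runs, the 5 bins with the lowest input, up to 3 called bins per direction and comparison, the 3 bins on either side of the limit and the 25 protein-coding genes with most bases in low-input bins; exceptions are named as such. The fourth bin called was named because the count is small.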

Additional observations from a re-analysis of the deposited data

How the results depend on the processing

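Against 0.5 times the median, limits of 0.25, 0.4 and 0.6 gave 492, 940 and 2934 low-input bins, and the values moved with the limit. At 0.4 and 0.6 the level was 0.168 and 0.392 in Cenp-a, 0.182 and 0.411 in H3, 0.146 and 0.367 in H4, 0.182 and 0.399 in IgG and 0.199 and 0.424 in input. The share of the outermost 1 Mb was 9.89% and 6.37%, of 1 to 5 Mb from an end 25.9% and 17.4%, of 0.5 to 5 Mb from the centromere 5.21% and 2.52%, within 0.5 Mb of it 0.957% and 0.511%, and of the rest of the arms 58.1% and 73.2%. At 0.4 the median log2 difference was -0.16 for Cenp-a against IgG and -0.11 for H3 against IgG, and at 0.6 it was -0.051 for Cenp-a against IgG. Scaled by the library total in place of the median bin, the limit gave 2685 bins, 992 of them on chromosome 8, and over the set reported the level was 0.243 in Cenp-a, 0.264 in H3 and 0.276 in input. Chosen by the inputs of the other replicates, the ratio to input was 0.917 for Cenp-a and 0.886 for H4.

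Calls of Cenp-a against H3/H4 were 4 higher and 0 lower under each alternative that could be run other than a minimum of 10 counts in every library, which left 3 (0.225%, against 0.126% of all bins). Across the fits that gave 4, these were 0.238% to 0.254% of the low-input bins tested. Of all bins, those fits called 0.0684% to 0.133% higher and 0% to 0.0221% lower. For Cenp-a against IgG that minimum left 501 low-input bins and none called higher (against 0.171% of all bins), because IgG replicate 2 had under 10 counts in the 4 bins. For H3 against IgG the same minimum gave 2 of 508 called lower (0.394%, against 0.0143% of all bins), with a median log2 difference of -0.11. It keeps only low-input bins with 10 or more counts in IgG replicate 2, which favours bins high in IgG. These 2 calls therefore cannot be read as a shortage of H3. DESeq2 with its own filter on the mean count left no low-input bin with an adjusted p-value; without that filter, a choice made after seeing the data, its counts are those in the report. Leaving out each library in turn without the replicate block gave medians of -0.098 to 0.0024 for Cenp-a against IgG, and of -0.073 to 0.065 for H3 against IgG. A lone library is then assumed to vary like the others. Same-numbered IgG and Cenp-a or H3 libraries deviated together only weakly (r = 0.02 and 0.04). With 2 replicates and the low counts of IgG replicate 2, these values cannot show whether the libraries are paired beyond the label. With no replicate block the calls were 4 and 0 for both Cenp-a comparisons. The higher calls were 0.251% against H3/H4 (0.0684% of all bins) and 0.245% against IgG (0.124% of all bins). Of all bins, 0% against H3/H4 and 0.120% against IgG were called lower. For H3 against IgG this fit called 0 of all 144710 bins in either direction, so its 0 low-input calls carry no information.

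By alternatives chosen after seeing the data, the median log2 difference without the 3 stretches of chromosome 8 was -0.17 for Cenp-a against IgG and -0.12 for H3 against IgG, and with each chromosome's own median -0.021 and 0.0034. A running median limit of 0.6 or 0.8 gave 16 or 119 stretches, and the 3 of chromosome 8 covered 12.08 or 12.5 Mb. All bins measure exactly 10 kb, so the alternatives on bin length equal the values reported. Counting error limits single low-input bins most in IgG replicate 2, and the causes of these shifts were not tested.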
